A study of Mus musculus with 5 samples.

Results

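The 10 genes described here encode AP-1 subunits and the immediate early factors around them: Fos, Fosb, Fosl1 and Fosl2 of the FOS family, Jun, Junb and Jund of the JUN family, and Atf3, Egr1 and Srf. They were taken by symbol from 25414 genes in all. The rule uses no expression value, but the set was proposed with earlier results of these data known. The values are FPKM, fragments scaled to transcript length and to library depth, so that levels can be set side by side between genes. Between samples this holds less exactly, since the values summed to 442905 and 446393 in NSCs and to 385485 to 399970 in STO cells. Primary neural stem cells (NSCs), from E12.5 mouse cortex and cultured for 5 to 8 passages, were sequenced in 2 replicates. STO cells, a thioguanine- and ouabain-resistant line of SIM mouse embryonic fibroblasts kept for more than 30 passages, were sequenced in 3 replicates. Both are labelled C57BL/6, and neither was given an agent or an altered allele by the labels. The NSCs grew as monocultures on poly-L-ornithine and laminin in neural basal medium with B27, heparin, EGF and bFGF, and the STO cells in DMEM with fetal bovine serum. Cell type and medium therefore changed together and cannot be told apart. Nothing in the labels says that replicates came from separate cultures, so the p-values measure the spread between these samples, which may be technical.

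AP-1 is a dimer of basic leucine zipper proteins. JUN proteins pair with each other or, more stably, with FOS proteins, whereas FOS proteins do not form stable dimers of their own, so the makeup of the pool sets which dimers can form. Immediate early genes are transcribed within minutes of a growth factor, serum or stress signal, without new protein synthesis. SRF, bound to a CArG box with a ternary complex factor such as ELK1, is the classical route by which serum and MAP kinases reach Fos and Egr1, and EGR1 and ATF3 are themselves factors made in the first wave.

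Promoter sequence is shown for 5 of the genes, 4 because they hold letters matching a CArG box or an EGR site, and Jun for a variant of the AP-1 site. Windows of 500 bases before the start of the deposited locus were searched on both strands in mm9, for 19418 genes and 9 of the members; the window of Egr1 was not analysed here. Capitals mark the CArG box, the EGR site (GCGTGGGCG or GCGGGGGCG) and the TATA box (TATAAA, or TTTATA where it lies on the other strand). In Jun they mark TGACATCA, that variant, added to the search after the windows had been read. A match is a string of letters and not a shown binding site.

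Fos, mm9 chr12:86814513-86814812, plus strand: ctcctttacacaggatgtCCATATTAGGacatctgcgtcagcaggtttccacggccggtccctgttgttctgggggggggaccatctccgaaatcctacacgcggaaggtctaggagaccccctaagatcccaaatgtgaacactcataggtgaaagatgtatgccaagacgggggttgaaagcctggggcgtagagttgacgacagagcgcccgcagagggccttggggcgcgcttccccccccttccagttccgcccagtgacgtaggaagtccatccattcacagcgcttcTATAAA

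Fosb, mm9 chr7:19895395-19895684, minus strand: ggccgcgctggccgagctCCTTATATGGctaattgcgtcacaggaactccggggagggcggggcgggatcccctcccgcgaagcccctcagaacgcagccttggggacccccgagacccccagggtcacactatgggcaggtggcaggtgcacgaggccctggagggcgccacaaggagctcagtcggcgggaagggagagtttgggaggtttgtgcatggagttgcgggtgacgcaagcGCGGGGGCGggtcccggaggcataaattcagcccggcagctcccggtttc

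Srf, mm9 chr17:46693112-46693241, minus strand: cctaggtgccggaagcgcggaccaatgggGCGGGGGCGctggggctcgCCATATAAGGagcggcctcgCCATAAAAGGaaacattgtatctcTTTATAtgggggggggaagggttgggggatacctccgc

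Fosl2, mm9 chr5:32438755-32438784, plus strand: tccggctgcgcGCGGGGGCGgaagggcgcg

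Jun, mm9 chr4:94718939-94718988, minus strand: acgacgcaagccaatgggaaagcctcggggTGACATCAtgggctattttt

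A CArG box began 320 bases before the start of Fos, 272 before that of Fosb, and 82 and 62 before that of Srf. It was held by 3 of the 9 member windows and by 2.61% of all windows. An EGR site, which can share letters with the GC box GGGCGG, lay in Fosb, Fosl2 and Srf and in 5.38% of all windows. The letters of the TATA box, on either strand, were found in Fos, Fosl1 and Srf and in 23.1% of all windows. Only Fos held TATAAA on its own strand, 44 bases before the start. Fosl1 and Srf held TTTATA, 283 and 38 bases before it. Junb held none in this window, but TATAAA lies at the start in its RefSeq promoter, outside the window. Neither the full cyclic AMP element TGACGTCA (2.38% of all windows) nor the AP-1 site TGACTCA or TGAGTCA (7.14%) lay in the 9 windows, which says only that these letters were absent there. Part of that element, TGACG or CGTCA, lay in 7 of the 9 windows and in 28.9% of all windows. The GC box GGGCGG lay in 7 of the 9 and in 47.9% of all windows. TGACATCA began 45 bases before the start of Jun and was present in 3.13% of all windows.

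The libraries held 15223341 to 22271895 fragments, as implied by the confidence intervals deposited with the FPKM values, and depth relative to NSC replicate 1 ran from 0.719 in STO replicate 1 to 1.09. Replicates of a cell type correlated at 0.994 to 0.996 across tested genes. The 8 NSC markers, among them Sox2 and Fabp7, summed to 3841 to 4057 FPKM in NSCs and to 0.368 to 0.501 in STO cells, where 5 were listed at 0 in all replicates. The 8 fibroblast markers summed to 1536 to 1636 FPKM in STO cells and to 5.05 to 5.12 in NSCs. Among these 8, Lum was low in STO cells too, with a mean of 0.261 FPKM, and was listed at 0 in NSCs. Markers of other cells moved too: 5 astrocyte genes summed to 316 to 319 FPKM in NSCs and 25.0 to 26.7 in STO cells, 4 oligodendrocyte genes to 120 to 122 and 0.961 to 1.14, and 6 neuron genes to 12.5 to 12.6 and 0.180 to 0.211. Single genes made up most of the astrocyte and oligodendrocyte sums. Slc1a3 had a mean of 247 FPKM in NSCs and 25.6 FPKM in STO cells, and Mbp a mean of 85.8 FPKM in NSCs. Gfap was at 16.4 and Mog at 0.541 FPKM in NSCs. Microglia genes did not sum above 0.394 FPKM in a sample, nor endothelial genes above 0.576. The part of cells of other types in the results below was not tested, and in bulk RNA fewer cells of a type and less RNA per cell cannot be told apart.

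Of the 10 genes, 9 were higher in STO cells and 1, Jund, was not called in either direction (limma, Benjamini-Hochberg adjusted p under 0.05 over 12292 genes). NSCs and STO cells differ widely, and this count has to be read against that: 85.6% of all tested genes were called, 41.9% as higher and 43.7% as lower in STO cells. All 10 passed the expression minimum, a mean of 1 FPKM in at least 1 cell type. Fosb, Fosl1 and Atf3 passed through STO cells alone, where they are high, and so had to differ. In 9 genes every STO replicate lay above every NSC replicate, as it did in 43.9% of tested genes. A rise of at least 2 on the log2(FPKM + 1) scale was seen in 6 of the 10 genes and in 6.7% of tested genes. Those 6 include Fosb, Fosl1 and Atf3, whose direction was fixed by the minimum. The median log2 difference, which also counts these 3 genes, was 2.91 over the 10 genes and -0.023 over all genes tested.

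**Figure D1:**
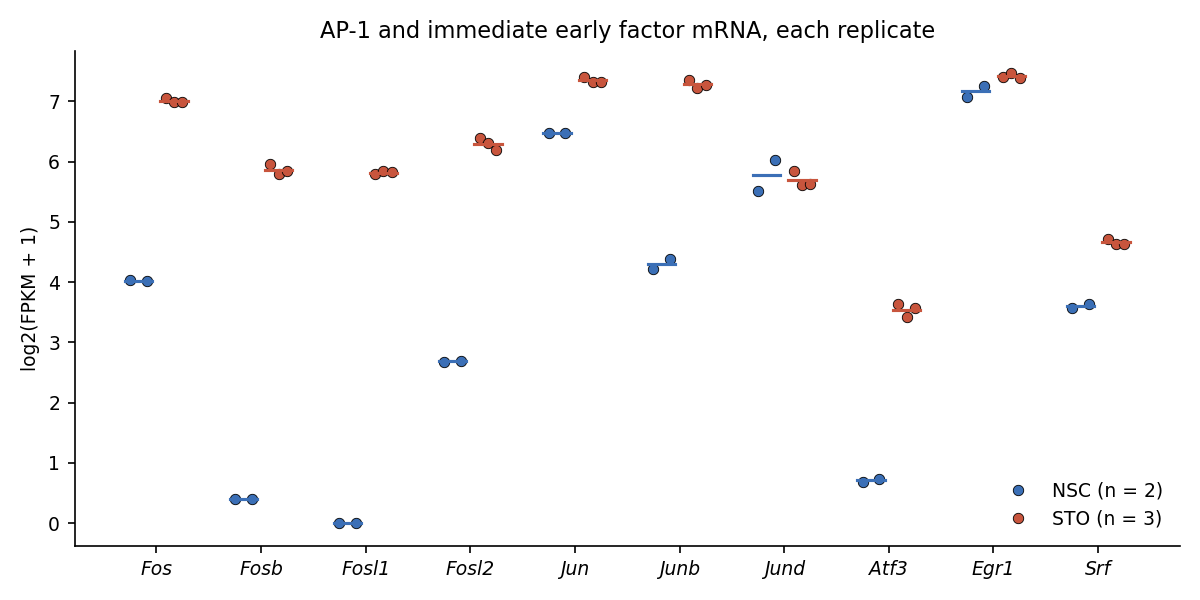
Level of each AP-1 and immediate early gene as log2(FPKM + 1) in the 2 NSC and 3 STO replicates; points are replicates and lines their means. The points of the cell types stand apart for every gene except Jund, and Fosl1 lies at 0 in both NSC replicates.

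All 4 FOS genes were higher in STO cells, as were 41.9% of all tested genes. Fosl1 and Fosb had the largest log2(FPKM + 1) differences of the 10 genes, but their direction was fixed by the minimum. Fosl1, which encodes FRA-1, was listed at 0 in both NSC replicates and at 54.3, 56.3 and 55.7 FPKM in STO replicates 1, 2 and 3. Its estimate carried the status OK in every sample. No fold can be given against values of 0, and 3 fragments would have given 0.124 and 0.114 FPKM in NSC replicates 1 and 2, a limit that covers counting error only. The difference in log2(FPKM + 1) was 5.82 (SE 0.0497, adjusted p = 5.07e-09, limma), and its size rests on the pseudocount: with 0.1 in place of 1 it was 9.12. Ccdc85b, annotated on the opposite strand, overlaps the Fosl1 locus (chr19:5447698-5455938, mm9). It had 26.5 and 29.6 FPKM in NSCs and 16.8 to 20.6 FPKM in STO cells, while Fosl1 was at 0 in the former.

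Fosb, a FOS protein best known in the brain for its long-lived splice form in neurons, was at 0.324 and 0.318 FPKM in NSCs and at 61.2, 54.5 and 56.5 FPKM in STO cells. The mean in STO cells was 179 times that in NSCs, and 168 to 192 times for single pairs of replicates. The NSC values rest on 26 and 31 implied fragments. The log2 difference was 5.46 (SE 0.0648, adjusted p = 7.83e-09, limma). The files list 2 Fosb transcripts at chr7:19888045-19895394. NM_008036 took all of the Fosb value in STO cells, where NM_001347586 was listed at 0. In NSCs, NM_001347586 took 31.6% and 22.8% of it, but at 0.102 FPKM (interval 0.0236 to 0.181) and 0.0723 FPKM (interval 0.00791 to 0.137), too few fragments to compare the split between cell types.

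Fosl2, which encodes FRA-2, was expressed in both cell types. It was at 5.39 and 5.47 FPKM in NSCs and at 82.5, 78.1 and 72.1 FPKM in STO cells, 14.3 times higher by the means and 13.2 to 15.3 times by single pairs. Its log2 difference of 3.61 (SE 0.0683, adjusted p = 4.02e-08, limma) was far larger than the spread between replicates. The gene lies at chr5:32438845-32460212. Fos, the founding member and a standard reporter of recent stimulation, was at 15.3 and 15.2 FPKM in NSCs and at 132, 126 and 126 FPKM in STO cells. That is 8.38 times higher by the means, with a log2 difference of 2.99 (SE 0.0503, adjusted p = 2.42e-08, limma). Fos lies at chr12:86814851-86818219, and its NSC values rest on 995 and 1085 implied fragments.

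The JUN family was split. Junb, whose product is a weaker activator than JUN and often opposes it, was at 17.5 and 20.0 FPKM in NSCs and at 163, 148 and 154 FPKM in STO cells, 8.26 times higher by the means. Its log2 difference was 2.98 (SE 0.0765, adjusted p = 1.53e-07, limma). Jun (chr4:94715727-94718913), the strongest activator of the family, was already high in NSCs. It was at 88.3 FPKM in both NSC replicates and at 167, 159 and 159 FPKM in STO cells, 1.83 times higher by the means (log2 difference 0.87, SE 0.0536, adjusted p = 1.05e-05, limma).

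Jund, the member that is expressed most evenly across tissues and is least dependent on stimulation, was at 44.8 and 64.4 FPKM in NSCs and at 56.3, 47.8 and 48.6 FPKM in STO cells. The STO values all lay between the NSC values. The NSC replicates differed by more than the cell types did, and the log2 difference of -0.081 had a 95% interval of -0.47 to 0.31 (SE 0.158, adjusted p = 0.65, limma). Without NSC replicate 2 it was 0.18 and without NSC replicate 1 it was -0.34, so that even its sign depends on 1 library; it also turned to 0.092 when values were rescaled to a common sum as TPM. Jund lies at chr8:73221638-73224515, and Junb on the same chromosome at chr8:87500808-87502647.

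**Figure D2:**
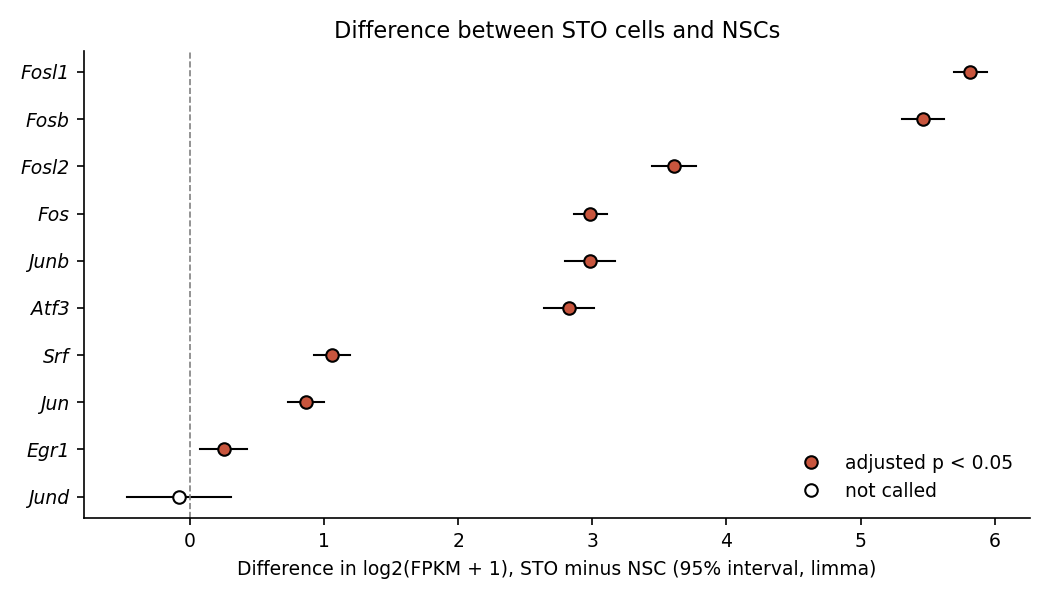
Difference in log2(FPKM + 1) between STO cells and NSCs for the 10 genes, with 95% intervals from limma; filled points had an adjusted p under 0.05. The genes run from Fosl1 at 5.82 down to Egr1 at 0.25 and Jund at -0.081, whose interval spans 0.

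Because FPKM is per length, the members can be added up. The FOS family summed to 21.0 FPKM in both NSC replicates and to 330, 314 and 310 FPKM in STO cells. The JUN family summed to 151 and 173 FPKM in NSCs and to 387, 355 and 361 FPKM in STO cells. FOS mRNA thus made up 12.2% and 10.8% of the FOS and JUN total in NSCs and 46.0%, 47.0% and 46.2% in STO cells, a gap far wider than the range within either cell type. In NSCs the FOS part was mostly Fos, with 72.6% ± 0.285 (SD, n = 2), and Fosl2, with 25.9% ± 0.303 (SD, n = 2). In STO cells Fos held 40.2% ± 0.346, Fosl2 24.4% ± 0.964, Fosb 18.0% ± 0.632 and Fosl1 17.4% ± 0.844 (SD, n = 3). The share of Fosl2 within the family was thus close in the cell types while its level was not. In the JUN part, Junb held 11.6% ± 0.0407 (SD, n = 2) in NSCs and 42.1% ± 0.489 (SD, n = 3) in STO cells. Jund held 33.5% ± 5.35 and 13.8% ± 0.620, and its own level was not called as different. These shares are of mRNA and were not tested, since the set was proposed with results of these data known.

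**Figure D3:**
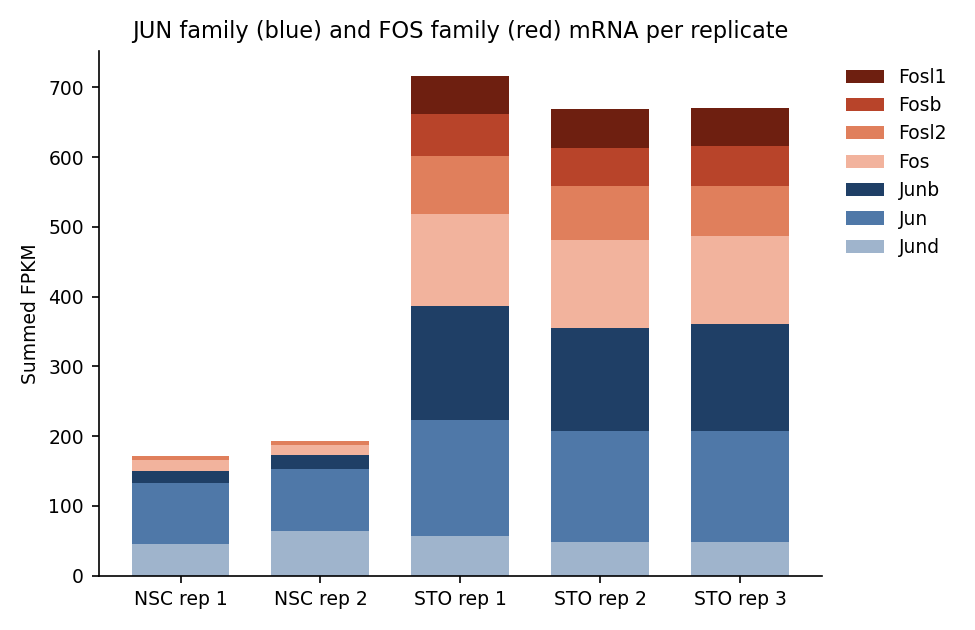
FPKM of the 3 JUN genes (blue) and the 4 FOS genes (red), stacked for each replicate. The FOS part is 10.8% to 12.2% of the column in NSCs and 46.0% to 47.0% in STO cells, and the column itself is 172 to 194 FPKM against 669 to 717 FPKM.

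Atf3, a stress-induced factor that pairs with JUN proteins, was at 0.611 and 0.661 FPKM in NSCs and at 11.4, 9.67 and 10.9 FPKM in STO cells. It was 16.7 times higher by the means, with a log2 difference of 2.83 (SE 0.0764, adjusted p = 1.96e-07, limma). Even so it had the lowest level of the 10 genes in STO cells, and the NSC values rest on 38 and 44 implied fragments. The gene lies at chr1:192994176-193007212.

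Egr1, a zinc finger factor induced by growth factors and neuronal activity, had the highest level of the 10 genes in both cell types. It was at 134 and 152 FPKM in NSCs and at 168, 176 and 167 FPKM in STO cells, 1.19 times higher by the means. The groups did not overlap, but the log2 difference of 0.25 (SE 0.0717, adjusted p = 0.016, limma) was small. Without NSC replicate 1 it was 0.16 (adjusted p = 0.053 by limma, against 0.0017 to 0.043 in the other alternatives), and it was 0.43 with values rescaled as TPM and 0.41 after quantile normalization.

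Srf, the factor that binds the CArG box, was at 10.9 and 11.4 FPKM in NSCs and at 25.3, 23.8 and 23.9 FPKM in STO cells. It was 2.18 times higher by the means (log2 difference 1.06, SE 0.0553, adjusted p = 4.49e-06, limma). The locus is chr17:46683788-46693111. Gm16736, a long noncoding RNA annotated on the other strand, spans it, and the strand setting of the quantification is not given in the sources used here. Annotated antisense genes also overlap Jun by 689 bases, Jund by 543 and Egr1 by 172.

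The order of levels differed between cell types. In NSCs it ran Egr1, Jun, Jund, Junb, Fos, Srf, Fosl2, Atf3, Fosb and Fosl1, with no overlap of replicates between neighbours. In STO cells it ran Egr1, Jun, Junb, Fos, Fosl2, Fosb, Fosl1, Jund, Srf and Atf3. There Egr1 and Jun overlapped, as did Jun and Junb, Fosb and Fosl1, and Fosl1 and Jund. Jund, whose difference was not called, thus stood at place 3 in NSCs and at place 8 in STO cells. Among the 12292 tested genes Fos moved from rank 4995 to 482 and Junb from 4245 to 375, counted from the highest mean FPKM. STO replicate 1, which had the lowest depth, was the highest STO replicate for 8 of the 10 genes. The same count was not made over all tested genes, so it cannot be read as a trait of these genes, and the part of depth was not tested.

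For each member, the gene nearest to it outside the 10 was found by the Euclidean distance of log2(FPKM + 1) over the 5 samples. These were Il6st for Fos (distance 0.300), Twist1 for Fosb (0.222), Fkbp10 for Fosl1 (0.217), Csf1 for Fosl2 (0.360), Akt1 for Jun (0.171), Cav1 for Junb (0.330), Trim35 for Jund (0.252), Dock5 for Atf3 (0.225), Pcbp2 for Egr1 (0.0812) and Limd2 for Srf (0.103). With 5 samples in 2 groups, such a match says only that the levels are alike in these cell types.

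The other leucine zipper proteins that pair with AP-1 subunits or share their sites were mostly higher in STO cells. Of 31 listed, 26 passed the minimum, 20 were higher, 4 lower and 2 not called, with a median log2 difference of 0.80. The share higher was 76.9%, against 41.9% of all tested genes, and the share called in either direction 92.3%, against 85.6%. Batf3, Mafa and Ddit3 passed the minimum through STO cells alone, so their direction was fixed by it. The largest rises were in Ddit3, the stress factor CHOP, which was listed at 0 in NSCs and at 29.7 ± 1.52 FPKM (SD, n = 3) in STO cells, and in Cebpb, a factor of inflammatory and fibroblast programmes. Cebpb was at 6.97 ± 0.314 FPKM (SD, n = 2) in NSCs and at 176 ± 24.8 FPKM (SD, n = 3) in STO cells (log2 difference 4.46, adjusted p = 1.69e-07, limma). The largest falls were in Creb5, with a log2 difference of -2.78, and Crem, with -1.21. Creb3 and Bach2 were the other genes that fell, and Atf6 and Maff were not called.

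Other immediate early genes differed in both directions. Of 47 listed, 45 were tested, 30 were higher in STO cells, 11 lower and 4 not called (median log2 difference 1.20). The share called, 91.1%, was near the 85.6% of all tested genes, and the share higher was 66.7%, against 41.9%. Nr4a2, Klf2, Ccn2 and Ptgs2 passed the minimum through STO cells alone, and Egr4, Nr4a3 and Arc through NSCs alone. The direction of these genes was fixed by the minimum. The genes with the largest rise were Ptgs2, the inducible cyclooxygenase, and Ccn1, a matricellular protein. Ptgs2 was at 0.368 ± 0.0141 FPKM (SD, n = 2) in NSCs and at 138 ± 0.617 FPKM (SD, n = 3) in STO cells, and Ccn1 at 5.68 ± 0.366 and 223 ± 7.43 FPKM. The largest falls were in Arc, a synaptic activity gene, and Klf10, a zinc finger factor induced by TGF-beta. Arc was at 25.2 ± 3.30 FPKM (SD, n = 2) in NSCs and at 0.627 ± 0.123 FPKM (SD, n = 3) in STO cells (log2 difference -4.00, adjusted p = 1.4e-07, limma), and Klf10 at 61.5 ± 3.48 and 9.98 ± 0.290 FPKM. Egr4, Nr4a3, Btg2, Dusp6, Myc, Gadd45g, Plk2, Per1 and Homer1 were also lower in STO cells, while Rhob, Trib1, Nab2 and Maff were not called. Among 5 heat shock genes listed for stress at harvest, 4 were tested, and 3 of these were higher in STO cells and 1 lower. The share called was 100%, against 85.6% of all tested genes, and the share higher 75.0%, against 41.9%. Hspa1a and Hspa1b passed the minimum through STO cells alone. The list summed to 61.3 to 65.5 FPKM in NSCs and 87.8 to 95.1 FPKM in STO cells. Within it Hsph1 rose from 34.3 to 65.8 FPKM and Dnajb1 fell from 27.3 to 19.0 FPKM. The part of this list in the differences of the immediate early genes was not tested.

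Of the 7 listed SRF cofactors, Myocd, the smooth muscle coactivator, was listed at 0 in all 5 samples. Fhl2, a LIM protein and SRF target as well as cofactor, rose most, from 1.48 ± 0.0952 FPKM (SD, n = 2) to 35.0 ± 1.44 FPKM (SD, n = 3), with a log2 difference of 3.86 (adjusted p = 1.8e-08, limma). Elk3 (log2 difference 1.13), the actin-regulated coactivator Mrtfa (0.78) and Elk1 (0.22) were also higher, whereas Mrtfb (-0.13) and Elk4 (0.10) were not called. Of 22 actin and muscle genes known as SRF targets, 19 were tested, 16 rose and 3 fell (median 2.17). The share higher was 84.2%, against 41.9% of all tested genes. Ccn1 and the tropomyosin Tpm2 rose most, the latter from 0.258 ± 0.0388 to 23.1 ± 1.55 FPKM. The genes that fell were the nonmuscle actin Actg1 (log2 difference -1.08), the myosin light chain Myl9 (-1.33) and Tagln2.

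Of 23 genes known as AP-1 targets in fibroblasts, 22 were tested, 17 were higher and 5 lower in STO cells, with a median log2 difference of 2.74. The share higher was 77.3%, against 41.9% of all tested genes. Several of them mark fibroblasts in their own right, Dcn stands also on the fibroblast list, and Fosl1 is a member. The matrix protease Mmp3 was listed at 0 in NSCs and at 228 ± 8.74 FPKM (SD, n = 3) in STO cells, and the collagen crosslinking enzyme Lox went from 0.107 ± 0.0323 FPKM (SD, n = 2) to 231 ± 16.7 FPKM (SD, n = 3). The largest falls were in cyclin D1, Ccnd1, from 664 ± 19.4 to 123 ± 3.07 FPKM, and in the EGF receptor ligand Hbegf, from 50.2 ± 4.07 to 8.39 ± 0.384 FPKM. Mt1, Vegfa and Tnc were also lower.

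The MAP kinase route that carries receptor signals to AP-1 held genes that differed in both directions, much as all tested genes did. All 27 listed genes were tested, 12 were higher, 13 lower and 2 not called. The share higher, 44.4%, was near the 41.9% of all tested genes, and the median log2 difference of -0.038 near their -0.023. Map2k3, a kinase of the p38 branch, rose from 12.2 ± 0.504 FPKM (SD, n = 2) to 57.0 ± 3.57 FPKM (SD, n = 3), and Rps6ka2, a kinase below ERK, rose by 1.74 on the log2 scale. Mapk10, the JNK gene of neural tissue, went from 5.95 ± 0.321 to 0.114 ± 0.0256 FPKM, and Map3k1 had a log2 difference of -1.69.

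**Figure D4:**
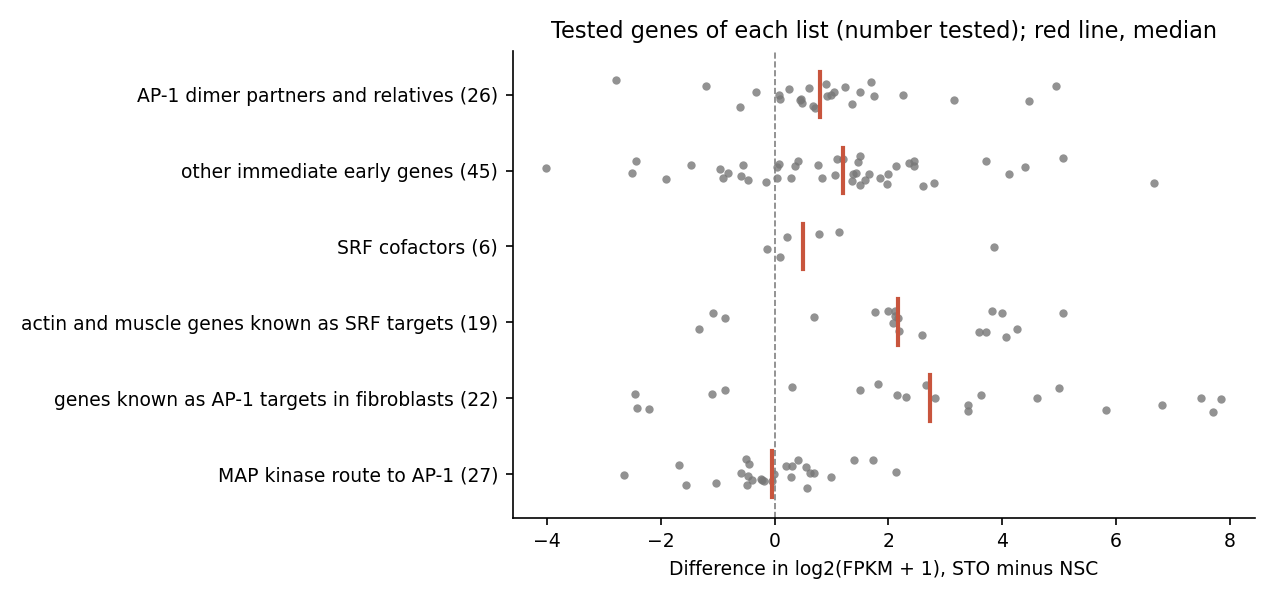
Difference in log2(FPKM + 1) between STO cells and NSCs for each tested gene of 6 lists around AP-1; red lines are medians. The medians run from -0.038 for the MAP kinase route to 2.74 for genes known as AP-1 targets, and every list holds genes on both sides of 0.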

How the data were processed

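Paired-end reads of stranded mRNA libraries were placed on mm9 by the authors, after trimming, with HISAT2 (4.8.2 in the submitters' processing notes), and the authors computed FPKM with Cufflinks 2.2.1 on RefSeq transcripts. The deposited FPKM values and the bounds of their confidence intervals, also FPKM, were used as given. Of 40201 transcripts, 39951 were matched to a symbol through a RefSeq table of GRCm38.p6, used for names only, and values were summed by symbol and overlapping locus into 25414 genes. Loci are those of the files, with the start counted from 1. Members, lists and tests were chosen with earlier results of these data known. Genes with a mean of at least 1 FPKM in NSCs or STO cells were compared with limma 3.58.1 in R 4.3.3 (eBayes with trend) on log2(FPKM + 1), where fold changes of low genes are understated, with Benjamini-Hochberg adjustment over 12292 genes and a threshold of 0.05. The fit was tested on simulated data. Fragments behind a value were taken from the distance to its upper bound, read as 2 Poisson standard deviations. Promoter letters were read from the mm9 genome (NCBIM37), with strands from GENCODE vM1. Besides the members, the genes named were the 2 strongest risers and the 2 strongest fallers of each pathway list, among those with an adjusted p under 0.05 and no overlap between cell types, the SRF cofactors in full and the nearest gene of each member; other genes were named, to complete counts or as examples of markers, after their values were seen. Python 3.11.15, numpy 2.4.6, pandas 2.3.3 and matplotlib 3.10.9 were used.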

Additional observations from a re-analysis of the deposited data

How the results depend on the processing

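Pseudocount, expression minimum, scaling, trend, replicate block, left-out replicates and the use of the highest transcript alone gave 14 alternatives. Changing the minimum or the trend left each member's difference as it was, as did the highest transcript alone except for Fosb. The replicate block repeated the differences found without STO replicate 3. The 14 are thus not separate checks of direction. The 9 called members kept their direction in all 126 refits and their side of the threshold in 125; the exception was Egr1 without NSC replicate 1, given above. Jund was not called in any and turned positive in 2, with values rescaled as TPM (0.092) and without NSC replicate 2 (0.18); without 1 replicate its difference ran from -0.34 to 0.18. Rescaling as TPM raised the median of all genes by 0.15, so that rises under it are in part this shift. With single replicates left out, genes higher in STO cells numbered 4704 to 5065 (5153 with all) and genes lower in them 4900 to 5253 (5375 with all); where 1 NSC replicate was left, it was assumed to vary like the STO replicates. The replicate numbers were not shown to pair the samples: deviations of same-numbered samples correlated at 0.0075 and 0.061. With the replicate block, in which STO replicate 3 does not bear on the difference, 4994 genes were higher and 5252 lower, and no member changed its call (Egr1 0.27, Jund -0.050). Depth limits the values of Fosl1, Fosb and Atf3 in NSCs.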
